A study of Mus musculus with 21 samples.

Results

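The choroid plexus genes described here are 10 genes, Ttr, Kl, Clic6, Folr1, Kcne2, Kcnj13, Aqp1, Sostdc1, Enpp2 and Slc4a5, taken by name from the 16318 genes of the count table. All 10 were found there and all passed the filter on low counts. The set was chosen by the counts of Ttr, which spanned more than 10-fold between mice of the same group, so the spread of Ttr itself is given as a description and carries no test. The libraries were made from whole brains of 21 SAMP8 mice, a senescence-accelerated strain with memory deficits, with 1 mouse per library. From 4 to 6 months of age the mice received subcutaneous injections every other day for 8 weeks. The PBS group (12 mice, 6 female and 6 male) was given phosphate-buffered saline, and the HsTX1[R14A] group (9 mice, 3 female and 6 male) was given 1 mg/kg of HsTX1[R14A], a peptide that blocks the potassium channel Kv1.3. All mice were SAMP8, without a second strain among these libraries, and brains were taken after transcardial perfusion.

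The choroid plexus is a frond of secretory epithelium in the brain ventricles, which makes the cerebrospinal fluid and forms a barrier between that fluid and the blood. Its cells express transthyretin (Ttr), a carrier of thyroxine and retinol-binding protein, more strongly than any other brain cell. Ion transporters and channels of the apical and basolateral membranes drive fluid secretion, and receptors carry folate and hormones across the epithelium. The tissue is a small part of the brain, and in whole-brain RNA fewer choroid plexus cells and less RNA per cell cannot be told apart.

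The total counts ran from 14917175 to 47613793 per mouse. The names of the libraries came in 2 forms, a more common form for 15 mice (10 PBS and 5 HsTX1[R14A]) and a less common form for 6 mice (2 PBS and 4 HsTX1[R14A]). What the forms stand for is not given in the sources used here. Transcripts of neurons (summed markers 4098 to 7677 CPM, counts scaled to library size), astrocytes (2897 to 4841 CPM) and oligodendrocytes (3339 to 6762 CPM) were abundant. These sums do not tell which brain regions each library holds. Of the markers of cerebellar granule cells, Gabra6 ran from 0 to 90.1 CPM over the mice and Zic1 from 21.5 to 165 CPM. How evenly the libraries cover the whole brain was not tested. Levels below are in CPM scaled by TMM, a factor that makes libraries of different composition comparable.

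RefSeq promoter windows were at hand for 5 of the 10 genes (Kl, Kcne2, Kcnj13, Aqp1 and Slc4a5). The 250 bases before the start site are shown for Kcne2 and Kcnj13, the members with a window that holds TAATC on either strand. This is the core recognized by homeodomain proteins such as OTX2, a transcription factor of choroid plexus epithelium, whose own transcript is described further on with the genes most like Ttr. Capitals mark the match, which reads GATTA because it lies on the opposite strand. The Kcne2 window shown is chr16:92292139-92292388 on the plus strand and the Kcnj13 window is chr1:87394730-87394979 on the minus strand, both in GRCm38.p6 and both written 5′ to 3′ along the gene. A second Kcne2 window, chr16:92295366-92295615, holds 0 matches to TAATC and is not shown.
Kcne2: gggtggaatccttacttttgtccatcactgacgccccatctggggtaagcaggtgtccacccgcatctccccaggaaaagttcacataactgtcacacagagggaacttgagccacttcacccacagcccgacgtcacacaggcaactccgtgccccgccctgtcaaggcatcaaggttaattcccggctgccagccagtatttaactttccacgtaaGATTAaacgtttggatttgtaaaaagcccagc
Kcnj13: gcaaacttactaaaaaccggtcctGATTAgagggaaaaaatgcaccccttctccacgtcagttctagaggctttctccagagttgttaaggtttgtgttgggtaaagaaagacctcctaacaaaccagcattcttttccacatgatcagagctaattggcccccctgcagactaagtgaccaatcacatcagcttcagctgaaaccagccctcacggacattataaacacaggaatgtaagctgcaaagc
The match begins 32 bases before the start site in Kcne2 and 226 bases before it in Kcnj13. TAATC on either strand was present in 19.8% of all 32851 RefSeq promoter windows, and the longer TAATCC, which contains it, in 6.25% of all windows and in 0 of the 5 genes. These matches describe the letters only.

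Ttr was the most abundant of the 10 genes and had the largest SD of log2 level within groups. Per kilobase of its longest transcript it stood at 494 ± 259 CPM (mean ± SD, n = 21), ahead of Enpp2 at 105 ± 26.9 CPM, and the other 8 genes lay between 0.425 and 3.86 CPM per kilobase. In PBS females Ttr was 49.9 CPM in the lowest mouse, 778 CPM at the median and 1014 CPM in the highest. In PBS males it was 119, 717 and 1073 CPM, in HsTX1[R14A] males 42.9, 509 and 630 CPM, and in the 3 HsTX1[R14A] females 362, 449 and 767 CPM. A low mouse stood in each of the 3 larger groups, namely PBS female mouse 104, PBS male mouse 91 and HsTX1[R14A] male mouse 93, and the 4 groups overlapped. The highest mouse was 20.3-fold above the lowest in PBS females, 14.7-fold in HsTX1[R14A] males, 9-fold in PBS males and 2.12-fold in HsTX1[R14A] females. Leaving out mouse 104 brought the ratio in PBS females to 1.49-fold. The lowest value rests on 849 counts, so the sampling of reads contributed little to it.

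**Figure D1:**
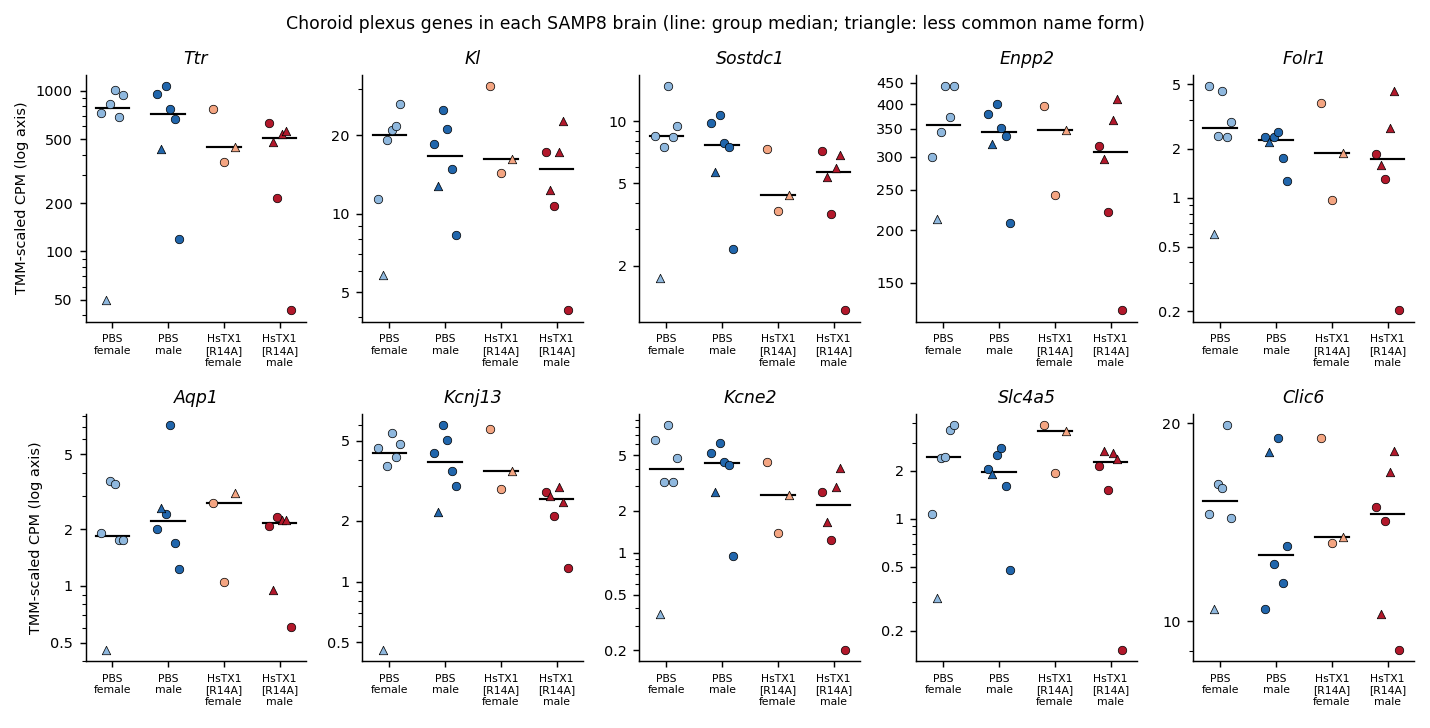
Level of each of the 10 genes in TMM-scaled CPM (log axis) in each mouse, by treatment and sex, with the group median as a line and triangles where the library name had its less common form. The lowest points of PBS females (mouse 104) and HsTX1[R14A] males (mouse 93) recur in gene after gene.

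The same 3 mice were low in the other choroid plexus genes. Mouse 93 had the lowest level of 8 of the 10 genes and the second lowest of the others, and mouse 104 was among the 3 lowest mice for all 10. Mouse 91 was among the 3 lowest for 6 of the 10 genes. In mouse 93 the genes stood at 6.28% (Kcne2) to 63.1% (Clic6) of the median mouse, in mouse 104 at 7.93% (Ttr) to 72.9% (Clic6), and in mouse 91 at 18.9% (Ttr) to 90.9% (Clic6). These mice come from both treatments, both sexes and both library name forms.

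**Figure D2:**
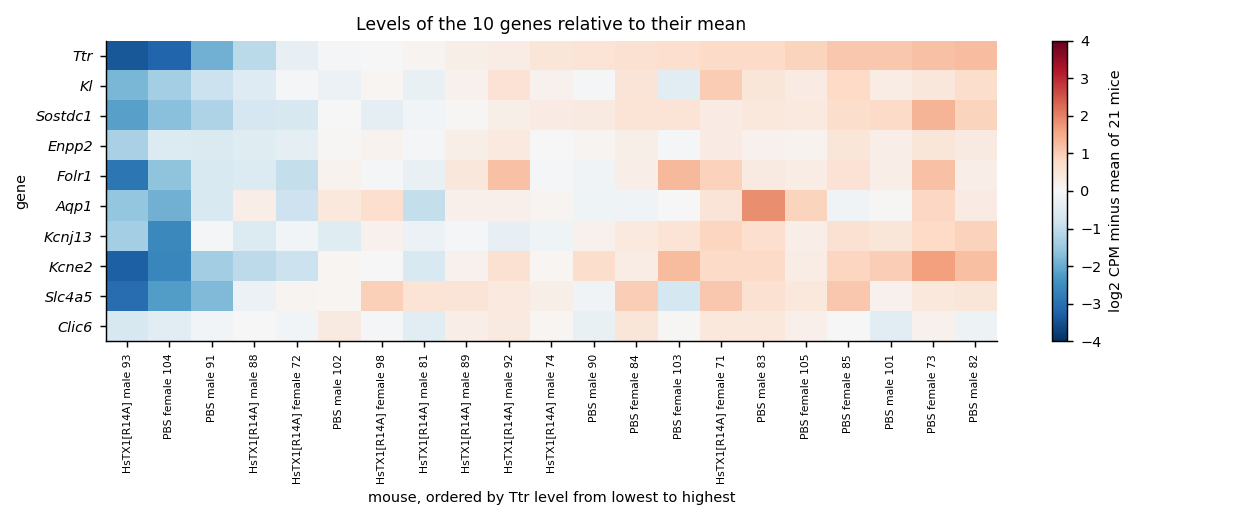
Log2 CPM of each gene minus its mean over the 21 mice, with mice ordered from the lowest to the highest Ttr. The 3 leftmost columns are low in most rows, while the row of Clic6 varies little.

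Of the secreted proteins and carriers, Sostdc1 followed the order of Ttr most closely. Sostdc1 encodes a secreted antagonist of BMP and Wnt signaling (chr12:36314139-36318452, GRCm38). It ran from 1.74 over 8.47 (median) to 14.8 CPM in PBS females, from 2.41 over 7.64 to 10.7 CPM in PBS males and from 1.21 over 5.65 to 7.19 CPM in HsTX1[R14A] males, and stood at 3.68, 4.41 and 7.3 CPM in the HsTX1[R14A] females. Across the 21 mice its log2 level followed that of Ttr with Pearson r = 0.967 (permutation test, 100000 resamples, two-sided, p = 1e-05, adjusted p = 1.5e-05) and Spearman rho = 0.970 (p = 1e-05, adjusted p = 3e-05). Here and below p = 1e-05 is the smallest these permutations can give, and adjustment is over the 9 relations with Ttr. Without mice 93 and 104, the 2 farthest from the median Ttr level, r was 0.943. Sostdc1 moved less than Ttr: each log2 unit of Ttr went with 0.64 ± 0.04 log2 units of Sostdc1 (slope ± SE).

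Enpp2 encodes autotaxin, a secreted enzyme that makes lysophosphatidic acid and that oligodendrocytes also express. Its level was 213 to 443 CPM in PBS females (median 358), 208 to 402 CPM in PBS males (median 344) and 129 to 412 CPM in HsTX1[R14A] males (median 307), with 243, 347 and 397 CPM in the HsTX1[R14A] females. It followed Ttr with r = 0.909 (permutation p = 1e-05, adjusted p = 1.5e-05) and rho = 0.813 (p = 2e-05, adjusted p = 4.5e-05), and with r = 0.868 without mice 93 and 104. Its slope on Ttr was shallow, at 0.30 ± 0.03 log2 units. What remained of Enpp2 after Ttr was fitted ran with the oligodendrocyte score at r = 0.101 (permutation p = 0.663, adjusted p = 0.768 over 18 relations; rho = 0.169, p = 0.463, adjusted p = 0.645), and at r = 0.0512 without the 2 mice farthest from the median score.

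Folr1 encodes the folate receptor alpha, which carries folate into the cerebrospinal fluid. It ran from 0.596 to 4.9 CPM in PBS females (median 2.67), from 1.27 to 2.54 CPM in PBS males (median 2.28), from 0.202 to 4.52 CPM in HsTX1[R14A] males (median 1.73), and was 0.975, 1.9 and 3.82 CPM in the HsTX1[R14A] females. The relation with Ttr had r = 0.859 (permutation p = 1e-05, adjusted p = 1.5e-05) and rho = 0.753 (p = 0.00012, adjusted p = 0.00018), with r = 0.643 without mice 93 and 104. The lowest value is 4 counts, and the 22.3-fold ratio between the highest and lowest HsTX1[R14A] males has a 95% interval from counting error alone of 8.43 to 83.7. It rests on mouse 93, without which it was 3.45, and was 13.3 without mouse 92.

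Kl encodes Klotho, a co-receptor for FGF23 whose ectodomain is shed into the cerebrospinal fluid. Its levels were 5.82 to 26.3 CPM in PBS females (median 20.1), 8.28 to 25 CPM in PBS males (median 16.7) and 4.25 to 22.7 CPM in HsTX1[R14A] males (median 14.8), with 14.4, 16.1 and 30.9 CPM in the HsTX1[R14A] females. The correlation with Ttr was r = 0.910 (permutation p = 1e-05, adjusted p = 1.5e-05) and rho = 0.797 (p = 5e-05, adjusted p = 9e-05), and r was 0.782 without mice 93 and 104.

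Among the channels, Kcne2 had the widest spread. It encodes a beta subunit of potassium channels in the apical membrane, and a promoter window of Kcne2 is printed above. Levels ran from 0.367 to 8.22 CPM in PBS females (median 3.98), from 0.952 to 6.12 CPM in PBS males (median 4.37) and from 0.202 to 4.02 CPM in HsTX1[R14A] males (median 2.2), and were 1.38, 2.59 and 4.46 CPM in the HsTX1[R14A] females. The relation with Ttr had r = 0.960 (permutation p = 1e-05, adjusted p = 1.5e-05) and rho = 0.930 (p = 1e-05, adjusted p = 3e-05), and r = 0.897 without mice 93 and 104. Its slope on Ttr, 0.91 ± 0.06, was the steepest of the 9 genes. The 22.4-fold ratio within PBS females rests on 8 counts in mouse 104 and has a counting interval of 11 to 53.1, and without that mouse it was 2.55.

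Kcnj13 encodes the inward rectifier Kir7.1, which recycles potassium at the apical membrane. In PBS females it ran from 0.458 to 5.5 CPM (median 4.37), in PBS males from 2.22 to 5.99 CPM (median 3.95) and in HsTX1[R14A] males from 1.16 to 2.95 CPM (median 2.57), and it was 2.88, 3.56 and 5.71 CPM in the HsTX1[R14A] females. It followed Ttr with r = 0.872 (permutation p = 1e-05, adjusted p = 1.5e-05) and rho = 0.868 (p = 1e-05, adjusted p = 3e-05), and r = 0.694 without mice 93 and 104. Kcnj13 overlaps Gigyf2 on the opposite strand and Folr1 overlaps Anapc15 in the same way. How strand was used in counting is not given in the sources used here, so reads of the overlapping genes could not be told apart.

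Aqp1 and Slc4a5 followed Ttr less firmly. Aqp1, the apical water channel, ran from 0.458 to 3.61 CPM in PBS females (median 1.83), from 1.24 to 7.15 CPM in PBS males (median 2.22, the highest in mouse 83) and from 0.607 to 2.33 CPM in HsTX1[R14A] males (median 2.15), and was 1.06, 2.76 and 3.14 CPM in the HsTX1[R14A] females. Its r with Ttr was 0.726 (permutation p = 0.00034, adjusted p = 0.000382) and rho 0.530 (p = 0.0151, adjusted p = 0.017), and the relation no longer held without mice 93 and 104, where r = 0.399 (permutation p = 0.0948, adjusted p = 0.107). Slc4a5 encodes a sodium bicarbonate cotransporter of the apical membrane. It ran from 0.321 to 3.86 CPM in PBS females (median 2.42), from 0.476 to 2.77 CPM in PBS males (median 1.98) and from 0.152 to 2.67 CPM in HsTX1[R14A] males (median 2.26), and was 1.93, 3.52 and 3.85 CPM in the HsTX1[R14A] females. Its r with Ttr was 0.879 (permutation p = 4e-05, adjusted p = 5.14e-05) while rho was 0.569 (p = 0.00776, adjusted p = 0.00998). Without mice 93 and 104 r was 0.651 (permutation p = 0.00738, adjusted p = 0.00949), while rho was 0.418 (p = 0.0774, adjusted p = 0.0995). Without mouse 91 as well r was 0.295 over 18 mice. The lowest value of Slc4a5 is 3 counts, and the ratio of 17.6 between the highest and lowest HsTX1[R14A] males has a counting interval of 5.64 to 88.4. Without mouse 93 that ratio was 1.75.

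Clic6, a chloride intracellular channel protein that is abundant in this epithelium, had a narrower spread and a weaker relation with Ttr over the 21 mice. It lies on the same chromosome as Kcne2 (Clic6 chr16:92485736-92541243, Kcne2 chr16:92292389-92298129, GRCm38). Its level was 10.5 to 19.9 CPM in PBS females (median 15.2), 10.5 to 19 CPM in PBS males (median 12.6) and 9.05 to 18.2 CPM in HsTX1[R14A] males (median 14.6), and 13.1, 13.4 and 19 CPM in the HsTX1[R14A] females. The highest of all 21 mice was 2.2-fold above the lowest, against 25-fold for Ttr. Its r with Ttr was 0.505 (permutation p = 0.0179, adjusted p = 0.0179) and rho 0.331 (p = 0.143, adjusted p = 0.143). Over all 21 mice the Pearson relation rested on mice 93 and 104, since without both r was 0.114 (permutation p = 0.646). Without mouse 93 alone it was 0.335 and without mouse 104 alone 0.425. Within the 9 HsTX1[R14A] mice rho was 0.8 (permutation p = 0.0138, adjusted p = 0.0207), and within the 12 PBS mice 0.049 (p = 0.885). Among the pairs of the 10 genes, Clic6 had r from 0.450 with Kcnj13 to 0.698 with Aqp1. In the annotation Clic6 overlaps 2410124H12Rik on the same strand.

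**Figure D3:**
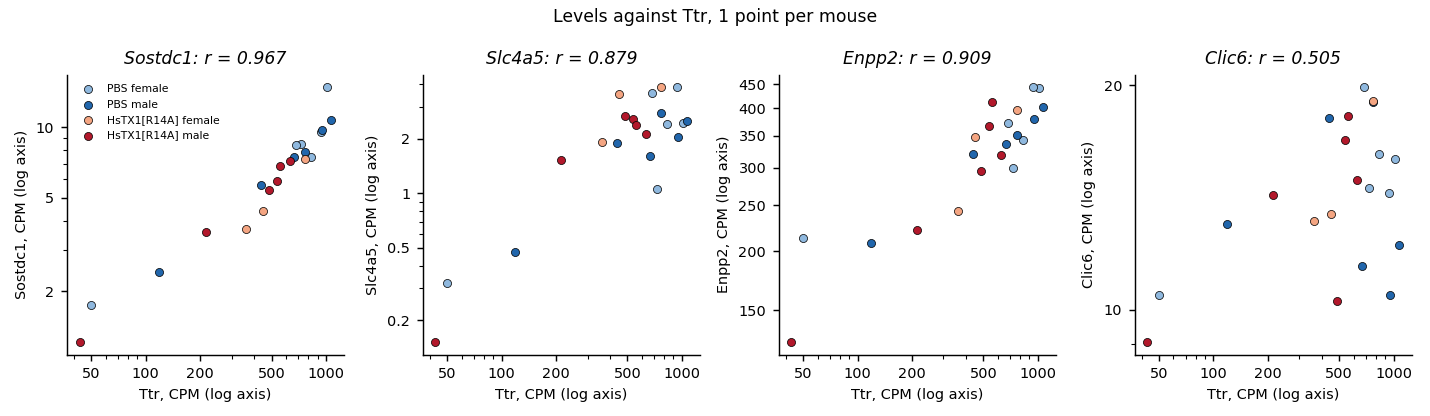
CPM of Sostdc1, Slc4a5, Enpp2 and Clic6 against CPM of Ttr (both axes log), with 1 point per mouse coloured by treatment and sex. Sostdc1 follows Ttr over the whole range, Slc4a5 levels off above the lowest mice, Enpp2 rises with a shallower slope and Clic6 scatters.

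The relations with Ttr were also computed within treatments and name forms. For the 8 genes other than Clic6, r ranged from 0.740 (Aqp1) to 0.973 (Sostdc1) in the 12 PBS mice, from 0.678 to 0.977 in the 9 HsTX1[R14A] mice and from 0.677 to 0.973 in the 15 mice of the more common name form. For Clic6 these values were 0.344, 0.730 and 0.490. By Spearman rho (permutation test), 8 of the 9 relations passed 0.05 after adjustment in PBS mice and 6 in HsTX1[R14A] mice. Those that did not in HsTX1[R14A] mice were Aqp1 (rho = 0.35, adjusted p = 0.359), Kcnj13 (0.567, adjusted p = 0.136) and Slc4a5 (0.667, adjusted p = 0.0757). Without mice 93 and 104, 7 passed by r and 6 by rho. Within the 6 mice of the less common form r ran from 0.578 (Clic6) to 0.974 (Sostdc1), and mouse 104 was the lowest of them for 9 of the 10 genes, Clic6 being lowest in mouse 81. Among all 45 pairs of the 10 genes the median r was 0.798, with 33 pairs at 0.7 or above. The log2 total counts of the libraries and Ttr gave no relation past 0.05 (r = 0.00755, permutation p = 0.975; rho = -0.0987, p = 0.671; r = -0.322 without mice 93 and 104).

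The spread of these genes was wide for the table as a whole. This is a description with no test, since the spread of Ttr chose the set. The SD of log2 CPM within treatment and sex groups had a median of 0.88 over the 10 genes and 0.26 over the 14503 genes whose mean log2 CPM was 0 or higher. Ttr was at rank 53 from the top with 1.38, followed by Kcne2 at 1.26, Slc4a5 at 1.14 and Folr1 at 1.01. Kcne2, Slc4a5 and Folr1 fall under 10 counts in 1 or 2 mice each, and genes were not matched for level. The lowest of the 10 were Clic6 at 0.35 and Enpp2 at 0.45, at percentiles 69.6 and 84.3 of all genes.

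The comparison of HsTX1[R14A] with PBS asked whether the peptide went with a change in these genes. In PBS mice Ttr was 49.9, 748 and 1073 CPM (lowest, median and highest), and in HsTX1[R14A] mice 42.9, 483 and 767 CPM, so the groups overlapped over most of their range. The log2 fold change of Ttr for HsTX1[R14A] over PBS was -0.59 ± 0.44 (SE; 95% interval -1.46 to 0.28; edgeR quasi-likelihood test with Benjamini-Hochberg adjustment, adjusted p = 0.295), and the PBS median was above the level of 8 of the 9 treated mice. Of the 10 genes, 0 passed an FDR of 0.05 in edgeR, limma/voom or DESeq2, and 0 had an unadjusted p under 0.05 in any of these, where edgeR called 31.6% of the 16303 genes tested (15.5% higher and 16.1% lower), limma/voom 31.9% and DESeq2 37.7%. An unadjusted p under 0.05 was reached by 46.4% of all genes in edgeR, 46.8% in limma/voom and 48.4% in DESeq2. The estimate was negative for 9 of the 10 genes, with a median of -0.27 against -0.01 over all genes tested. These signs are not independent, since the genes rise and fall together (median pairwise r = 0.798).

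The most negative estimates were those of Kcne2, Sostdc1 and Ttr, and across the 10 genes the estimate ran with log2 transcript length at r = 0.750 (genes are not independent replicates). That r was 0.768 within the more common library name form, -0.258 within the less common form and 0.709 with the Ttr level as covariate (9 genes). It was 0.172 once each library's length slope, a measure described below, entered the model. Such a model takes up differences that go with length, so this lower value is largely built in. Kcne2 averaged 4.16 ± 2.24 CPM in PBS and 2.36 ± 1.37 CPM in HsTX1[R14A] mice (mean ± SD, n = 12 and 9), with a log2 fold change of -0.78 ± 0.42 (edgeR, adjusted p = 0.151). Sostdc1 averaged 7.87 ± 3.52 and 5.06 ± 2.03 CPM, with -0.61 ± 0.32 (adjusted p = 0.135), and its PBS median was above the level of all 9 treated mice. Kcnj13 had -0.41 ± 0.29 (adjusted p = 0.260) and passed the threshold when mouse 104 was left out, at -0.52 (adjusted p = 0.0465), in a fit that called 32.9% of all genes. Aqp1 had -0.36 ± 0.35, Folr1 -0.18 ± 0.37, Enpp2 -0.16 ± 0.18, Kl -0.06 ± 0.27 and Clic6 -0.01 ± 0.14. The interval of Clic6, -0.29 to 0.27, was the narrowest of the 10. Slc4a5 was the only positive estimate, at 0.18 ± 0.37 (edgeR, adjusted p = 0.716), with an interval of -0.55 to 0.91. When the length slope was a covariate, Slc4a5 stood at -0.36 and Folr1 at 0.08, and neither passed the threshold.

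The 2 library name forms gave opposite estimates for most of these genes. In the 15 mice of the more common form the log2 fold change of Ttr was -0.96, from PBS levels of 119 to 1073 CPM and HsTX1[R14A] levels of 42.9 to 767 CPM. In the 6 mice of the less common form it was 1.24, from PBS levels of 49.9 and 437 CPM and HsTX1[R14A] levels of 449 to 558 CPM. One of those PBS mice is mouse 104, the low mouse described above. In the less common form 9 of the 10 estimates were positive and Clic6 stood at -0.02, and in the more common form all 10 were negative. Signs of genes that vary together are not independent. None passed an FDR of 0.05 in either form alone (edgeR; unadjusted p under 0.05 for 4 genes in the more common form and 2 in the less common form). The share of all genes that passed was 0% in each form, with 35.6% and 3.29% of all genes at an unadjusted p under 0.05, and the difference between forms was not tested.

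**Figure D4:**
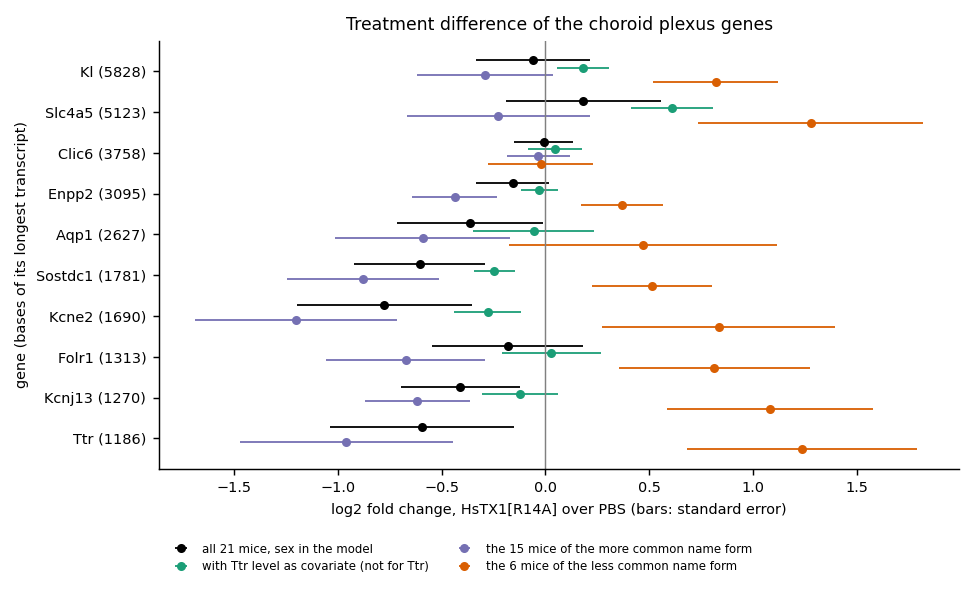
Treatment estimate for each gene (log2, HsTX1[R14A] over PBS) with its standard error, ordered by transcript length, in all 21 mice, with the Ttr level as covariate, and within each library name form. In all 21 mice 9 of the 10 estimates lie below 0, and within the 6 mice of the less common form 9 lie above 0.

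With the Ttr level of each mouse in the model, most of the treatment estimates shrank and 1 of the 9 genes, Slc4a5, was called, against 28.1% of all genes in the same fit. Its log2 fold change was then 0.61 ± 0.20 (edgeR, adjusted p = 0.0341), Sostdc1 had -0.25 ± 0.10 (adjusted p = 0.0642), Kcne2 -0.28 ± 0.16 (adjusted p = 0.181), and the remaining 6 lay between -0.12 and 0.18. The standard errors fell with the shared spread removed, from 0.32 to 0.10 for Sostdc1. Ttr was itself measured after treatment, with an estimate of -0.59 for HsTX1[R14A] over PBS, and its spread chose the set. An estimate adjusted for Ttr is therefore relative to Ttr, and the difference in Ttr enters it. Without Ttr in the model Slc4a5 stood at 0.18 ± 0.37 (edgeR, adjusted p = 0.716), so the call is no treatment difference of Slc4a5 by itself. What remained of Slc4a5 beside Ttr moved with a property of the libraries, the slope of log2 CPM on transcript length, which is higher where long transcripts take a larger share of reads. This slope was -0.08 ± 0.16 per doubling of length in PBS and 0.10 ± 0.12 in HsTX1[R14A] mice (mean ± SD, n = 12 and 9). Its relation with the Ttr-adjusted Slc4a5 level had r = 0.924 (permutation p = 1e-05, adjusted p = 9e-05 over 9 genes; rho = 0.918, p = 1e-05, adjusted p = 9e-05), r = 0.918 without the 2 mice farthest from the median slope, 0.915 within PBS mice, 0.874 within HsTX1[R14A] mice and 0.927 within the more common name form. Slc4a5 has a longest transcript of 5123 bases. For Kcne2, at 1690 bases, the same relation was negative (r = -0.587, permutation p = 0.00536, adjusted p = 0.0161; rho = -0.556, p = 0.00985, adjusted p = 0.0443), with r = -0.464 without the 2 farthest mice, -0.647 within the more common name form, -0.608 within PBS and -0.228 within HsTX1[R14A] mice. For Kl, at 5828 bases, it was positive (r = 0.626, permutation p = 0.00257, adjusted p = 0.0116; rho = 0.490, p = 0.0262, adjusted p = 0.0684), with r = 0.358 without the 2 farthest mice, 0.83 within the more common form, 0.873 within PBS and 0.140 within HsTX1[R14A] mice. With both the Ttr level and the length slope in the model, a choice made after seeing the data, Slc4a5 stood at 0.05 and 0 of the 9 genes passed the threshold in edgeR (0 at an unadjusted p under 0.05), as did 0% of all genes (9.41% at an unadjusted p under 0.05). For Ttr itself and the length slope no relation passed 0.05 (r = -0.0535, permutation p = 0.823; rho = -0.306, p = 0.178; r = -0.23 without mice 93 and 104, the farthest in Ttr). The part of the length slope in these results was not tested further.

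Sex was compared in the same fit. Ttr averaged 647 CPM in females and 540 CPM in males, a log2 difference (female over male) of 0.19 ± 0.44. The estimate was above 0 for 9 of the 10 genes, largest for Slc4a5 at 0.47 ± 0.37, and below 0 for Aqp1. Its median was 0.21 against 0.01 over all genes tested, and the signs are again not independent. Of the 10 genes 0 were called (edgeR, adjusted p from 0.503 to 0.903; limma/voom also called 0), against 0.0552% of all genes tested. In edgeR 0 of the 10 had an unadjusted p under 0.05, against 1763 of the 16303 genes tested. The interaction of treatment and sex gave 0 calls among the 10 genes, with 0 at an unadjusted p under 0.05 (edgeR and limma/voom), and 0% of all genes tested passed, with 270 of the 16303 genes at an unadjusted p under 0.05. With 3 HsTX1[R14A] females its intervals were wide, from -1.52 to 2.07 for Ttr.

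Further genes of choroid plexus epithelium were looked up from a list of 57, of which 52 were tested. Of these, 29 correlated with Ttr at r of 0.5 or above, and the median r was 0.607, against -0.00898 over the 14503 genes. The list also holds transporters and enzymes that other brain cells express, such as Atp1b1, a sodium pump subunit that had the highest level. For treatment, 6 of the 52 were called, 5 lower and 1 higher, which is 11.5% against 31.6% of all genes, with a median log2 fold change of -0.15 against -0.01 over all genes. Calml4, a calmodulin-like protein of brush borders, fell by 1.11 on the log2 scale (from 3.39 ± 1.58 to 1.52 ± 0.777 CPM; edgeR, adjusted p = 0.0221), and Msx1, a homeobox factor, fell by 0.65 (from 5.22 ± 1.6 to 3.25 ± 1.26 CPM; adjusted p = 0.0294). Cab39l (-0.36, edgeR adjusted p = 0.0248), Igfbp2, an IGF-binding protein (-0.30, adjusted p = 0.0176), and Stk39, a kinase that regulates cation chloride cotransporters (-0.18, adjusted p = 0.0298), were also lower. Atp2b3, a plasma membrane calcium pump that neurons also express, rose by 0.86 ± 0.25 (adjusted p = 0.0206). Adding the length slope to the model gave a count of 0, as did either name form alone, and in each of these fits 0% of all genes passed (11.4% at an unadjusted p under 0.05 with the length slope). The count was 13 without mouse 104, 11 without mouse 93 and 15 without both, in fits that called 32.9%, 40.6% and 41.4% of all genes.

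The genes most like Ttr over the 21 mice, outside the 10, were mostly from the same list. Among the 14503 genes whose mean log2 CPM was 0 or higher, the 15 with the largest r were Tmem72 (0.960), F5 (0.927), Cldn2 (0.915), Krt18 (0.907), Prr32 (0.896), 1500015O10Rik (0.868), Otx2 (0.838), Pcolce2 (0.809), Drc7 (0.809), Calml4 (0.803), Lbp (0.796), Col8a1 (0.790), Elovl7 (0.758), Nrp1 (0.749) and Msx1 (0.745), and 11 of them are in the list. F5 encodes coagulation factor V, Cldn2 a claudin of leaky epithelia, Krt18 a keratin and Otx2 the homeodomain factor named with the promoters. Outside the list are Pcolce2, an enhancer of procollagen processing, Drc7, a part of the dynein regulatory complex of motile cilia, Elovl7, a fatty acid elongase, and Nrp1, a semaphorin and VEGF co-receptor. Without mice 93 and 104 r was 0.902 for Tmem72, 0.784 for Otx2 and 0.449 for Lbp, the lowest of the 15. Of these 14503 genes, Ttr aside, 30 reached r of 0.7 or above, and 8 of those are among the 10 genes. A value of 0.5 or above was reached by 1% of them.

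Thyroid hormone genes were counted because Ttr carries thyroxine in the cerebrospinal fluid. Over 15 genes of transport, deiodination and nuclear reception the median r with Ttr was -0.0899 and the range -0.314 to 0.313, so none reached 0.5. For treatment 4 of the 15 were called (26.7%, against 31.6% of all genes), all higher. Among them, the amino acid and thyroid hormone transporters Slc7a5 and Slc7a8 rose by 0.54 ± 0.17 and 0.59 ± 0.22 on the log2 scale (edgeR, adjusted p = 0.0260 and 0.0481), and Rxra, a retinoid X receptor, by 0.34 ± 0.12 (adjusted p = 0.0409).

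Markers of other tissues and cell types in the brain were summed in the same mice, and their counts of calls stand beside 31.6% of all genes called. For ependyma, the ciliated lining of the ventricles, the 12 markers correlated with Ttr at a median r of 0.411 (0.218 to 0.622), summed to 23.1 to 80.0 CPM in PBS and 18.7 to 36.7 CPM in HsTX1[R14A] mice, and 5 of 12 were called for treatment, all lower, while its most abundant member Foxj1 had a log2 fold change of 0.00 ± 0.18. The 8 oligodendrocyte markers had a median r of 0.408, sums of 4372 to 6762 CPM in PBS and 3339 to 4887 CPM in HsTX1[R14A] mice, and 5 of 8 called, all lower (Mbp at -0.40 ± 0.10, edgeR adjusted p = 0.0161). The 5 erythrocyte genes, led by Hba-a1, had a median r of 0.412, with 0 called in edgeR. The 10 markers of leptomeninges and fibroblasts, led by Igf2, had a median r of 0.042, sums of 66.8 to 226 CPM in PBS and 56.1 to 187 CPM in HsTX1[R14A] mice, and 0 called. Median r was 0.0583 for endothelium (led by Flt1), -0.107 for neurons (Snap25), 0.205 for astrocytes (Slc1a2), -0.146 for microglia and 0.164 for cerebellar granule cells (Zic1), with 1 of 7, 1 of 7, 3 of 6, 1 of 5 and 0 of 5 genes called for treatment. Among the granule cell genes, Gabra6 ran from 0 to 90.1 CPM over the mice and Cbln3 from 0.0518 to 128 CPM. Zic1 ran from 21.5 to 165 CPM. The cause of this spread between mice was not tested. What remained of Enpp2 and Clic6 after Ttr was fitted was set against the scores of the 9 cell types, and the smallest adjusted p over these 18 relations was 0.451 for Pearson r and 0.609 for Spearman rho. For the other genes the part of these cell types was not tested.

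**Figure D5:**
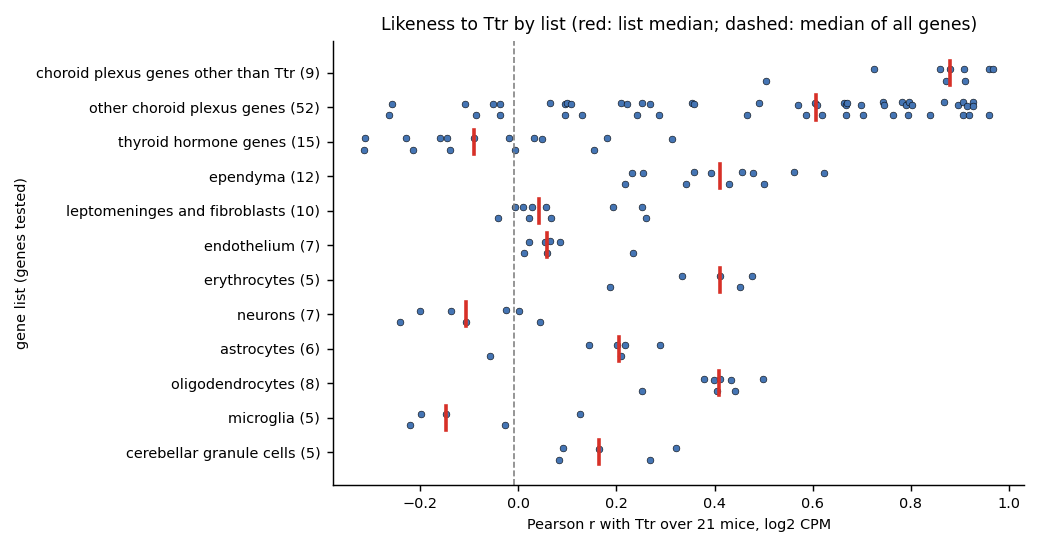
Pearson r with Ttr over the 21 mice for each gene of each list (points), with the list median in red and the median of all genes as a dashed line. The choroid plexus lists reach medians of 0.879 and 0.607, while the medians of ependyma, oligodendrocytes and erythrocytes lie near 0.41.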

How the data were processed

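The authors aligned whole-brain RNA-seq reads with STAR to GRCm38, quantified genes with Salmon (nf-core/rnaseq) and deposited estimated counts, not normalized, for 16318 genes (90.5% of values within 0.01 of a whole number). The labels and the paper's methods name different library kits. The counts of the 21 labelled mice were rounded before testing. The deposited table also holds 53 further per-sample columns that were not used, 37 of CPM and 16 of counts from other libraries, and the authors' log2 fold changes and p-values, which were not used either. In edgeR 4.0.16 (R 4.3.3), 16303 genes remained after filterByExpr. TMM factors were computed and the quasi-likelihood test (glmQLFTest) was run on a model of sex plus treatment. Benjamini-Hochberg adjustment covered all genes tested, at an FDR of 0.05. The interaction was fitted with an added term. The deposited labels name 1 mouse per sample, so mice are the replicates.

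A prior count of 2 was added for log2 CPM. Correlations across mice were tested with 100000 permutations, exactly with fewer than 10 mice (numpy 2.4.6, scipy 1.17.1). Transcript lengths are the longest transcript in GENCODE for GRCm38, and the length slope is the slope, per library, of log2 CPM centred on the gene's mean on log2 length (16224 genes). Ratios resting on few counts carry 95% intervals that cover counting error only. Total counts of 14917175 to 47613793 gave at least 10 counts in every mouse for 14228 genes. Promoters are from RefSeq (GRCm38.p6). The fit was tested on simulated data.

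The 10 genes and all lists were chosen with earlier results of these data known. The text names the 10 genes, the called genes of the further choroid plexus list with the 3 largest and 3 most negative log2 fold changes, the 15 genes most like Ttr, the most abundant gene of each cell type list and the called thyroid hormone genes. Some genes that this rule selects are not reported here. Atp1b1, Gabra6, Cbln3 and the overlapping genes were named after their values were seen. Alternatives were limma/voom 3.58.1, DESeq2 1.42.0, other scaling and filters, no sex term, the name form, Ttr level or length slope as covariate, mice of the more common name form only, and leaving out single mice. The less common name form alone, the Ttr level with the length slope, and leaving out the 2 mice lowest in Ttr or the 3 lowest were added after seeing the data.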

Additional observations from a re-analysis of the deposited data

Results flagged for a closer look

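Within groups of 6 mice, a mouse was singled out where its gap to the nearest other mouse, as a share of the range of log2 CPM in its group, exceeded Dixon's 95% critical value. Ttr was not examined in this way, because its spread chose the set. Of the 27 groups of values examined (9 genes in 3 groups of 6), 9 met this, and chance gives about 1 in 20. All 9 are lowest mice. The genes are not independent, since they rise and fall together. The values singled out belong to mice 104, 93 and 91, which were also lowest in Ttr in their groups. The spread of Ttr chose the set, so the comparison with 1 in 20 is no test.

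PBS female mouse 104 stood apart in Folr1 (0.596 CPM), Kcne2 (0.3668 CPM), Kcnj13 (0.4584 CPM), Aqp1 (0.4584 CPM) and Sostdc1 (1.742 CPM). HsTX1[R14A] male mouse 93 stood apart in Kcnj13 (1.163 CPM) and Slc4a5 (0.1517 CPM). PBS male mouse 91 stood apart in Enpp2 (208.1 CPM) and Slc4a5 (0.4759 CPM).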

How the results depend on the processing

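No paired analysis was possible because each replicate number in the labels belongs to a single mouse. Of the 10 choroid plexus genes, 0 were called for treatment in all 21 mice. The count was 1 with the Ttr level, itself measured after treatment, as covariate (Slc4a5, adjusted p = 0.0341 in edgeR). With 1 mouse left out the count was 0 to 1, with the call (Kcnj13) made without PBS female mouse 104. It was 0 under the other alternatives run, and counts for sex and for the interaction were 0 throughout. The calls over all genes, 5145 in the fit reported, were 2983 with no sex term, 1999 with the name form as covariate and 0 with the length slope as covariate, with the Ttr level and length slope, and within the more common or the less common name form alone, and ranged from 2290 (without PBS male mouse 90) to 6618 with 1 mouse left out. Of the 52 further choroid plexus genes, 6 were called, against 12 with DESeq2, 2 with the name form as covariate, 0 with the length slope, with the Ttr level and length slope and within either name form alone, 15 without the 2 mice lowest in Ttr, and 3 (without PBS male mouse 90) to 13 (without PBS female mouse 104) with 1 mouse left out. By Pearson r all 9 correlations with Ttr passed 0.05 after adjustment in 21 mice, 4 did within the 6 mice of the less common name form, and 8 to 9 did with 1 mouse left out. By Spearman rho 8 passed in 21 mice, all but Clic6, and 0 within the 6 mice of the less common name form. The count by rho was 6 within HsTX1[R14A] mice and 6 without mice 93 and 104. The ratio of the highest to the lowest Ttr in PBS females, 20.3, ranged from 1.49 (without mouse 104) to 20.3. Fewer mice enter the fits within name forms. The cause of the other shifts was not tested. Depth limits Folr1, Kcne2 and Slc4a5, which fall under 10 counts in 1 or 2 mice each.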
